A study of Mus musculus with 6 samples.

Results

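The genes described here encode the nuclear subunits of the mitochondrial respiratory chain and of the ATP synthase, together with assembly factors that share the Nduf name. A gene was taken where the array annotation gave a row exactly 1 symbol, and that symbol started with Nduf, Uqcr, Atp5 or Cox4 to Cox8 or was Sdha, Sdhb, Sdhc, Sdhd or Cyc1. By this rule 61 of 14860 genes were members: 27 subunits and 6 assembly factors of complex I, 4 subunits of complex II, 6 of complex III, 10 of complex IV and 8 of complex V. Gene expression was measured on Affymetrix exon arrays in the heart ventricle (left ventricle by the study's methods) of wild-type male C57BL/6 mice, of an age that the sources do not give. Transverse aortic constriction (TAC), a surgical narrowing of the aortic arch that loads the left ventricle with pressure, had lasted 1 week in 2 mice (1 W TAC) and 4 weeks in 2 mice (4 W TAC). The other 2 mice were sham-operated (Sham), and how long after the operation they were studied is not given. Both TAC groups were set against the same Sham arrays, so the 2 comparisons are not independent of each other.

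Complexes I and II pass electrons from NADH and succinate to ubiquinone, complex III passes them on to cytochrome c and complex IV to oxygen. Complexes I, III and IV pump protons across the inner mitochondrial membrane, and complex V, the ATP synthase, uses the returning protons to make ATP. The heart depends on this route for nearly all of its ATP, and cardiac and skeletal muscle use tissue-specific forms of some complex IV subunits. A few subunits are encoded by mitochondrial DNA. No such gene was among the genes with 1 symbol, so every value here is for a nuclear gene.

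Promoters of respiratory genes are known for sites of the transcription factors NRF1, ERR, YY1 and the ETS family, and short stretches are shown for genes to which the values below return. Promoter windows (250 bases before to 50 after a gene start, RefSeq, GRCm38.p6) were at hand for 49 of the 61 genes and were searched on both strands. In each line the matched letters are in capitals, 5′ to 3′ along the strand of the gene, and a match on the other strand appears as its reverse complement.
Ndufs6, NRF1 letters, chr13:73328480-73328506, minus strand: actgctgtgCGCCTGCGCcggcacttg
Ndufs6, YY1 letters, chr13:73328433-73328458, minus strand: gtcaccggcAAGATGGCGgcggtgct
Ndufs4, YY1 letters, chr13:114388045-114388068, minus strand: gcctacaggAAGATGGCGgcggtc
Ndufa9, YY1 letters, chr6:126849098-126849124, minus strand: ttgtgggagAAGATGGCGgccgccgtc
Ndufa8, NRF1 letters, chr2:36049350-36049376, minus strand: agagcagtgCGCTTGCGCgtcgctgga
Sdha, NRF1 letters, chr13:74350278-74350304, minus strand: gggcgtgttGCGCAGGCGcagaatctt
Sdhd, ERR letters, chr9:50603800-50603822, minus strand: gttgtagagTGACCTTGAgccct
Cox6a1, NRF1 letters, chr5:115349058-115349084, minus strand: ggataaagtGCGCAGGCGctggagttc
Atp5g3, ERR letters, chr2:73911361-73911387, minus strand: gttacaaagTGACCTTGAgcgtcttcc
The letters GCGCANGCG (NRF1) stood in the windows of 12 of the 49 genes (24.5%), against 9.63% of 17492 protein-coding genes and 7.03% of all 27025 genes with a window. AAGATGGCG (YY1) was found in 5 genes (10.2%), against 2.14% of protein-coding genes and 1.64% of all genes. TCAAGGTCA (ERR) was found in 2 genes (4.08%), against 0.377% of protein-coding genes and 0.466% of all genes. ACTTCCGG (ETS) was found in 0 of the 49, against 5.69% of protein-coding genes and 4.31% of all genes. The NRF1 letters can match both strands at nearly the same place, and 1 window with several matches was counted once. These are matches of letters and not binding sites.

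On the arrays as a whole, the median log2 signal of the genes lay between 5.85 and 6.04, and Pearson correlations of 2 arrays across genes, which are not independent replicates, lay between 0.968 and 0.988. The log2 signals of the 61 genes averaged between 1.89 and 12.99, with a median of 9.67, and 3 of them (Ndufa7, Cox7b and Cox7b2) were below 5.37, the median of all rows. Markers of cardiomyocytes (9 of 14 listed genes measured) had a mean log2 signal of 12.29 and 12.31 on the 1 W TAC arrays, 12.37 and 12.54 on the 4 W TAC arrays and 12.47 and 12.43 on the Sham arrays. The p values measure the spread between these arrays alone, and their number limits the precision.

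At 1 W TAC the respiratory genes were lower than in Sham almost throughout. On the 1 W TAC arrays 56 and 56 of the 61 genes lay below both Sham arrays, against 34.5% and 28.6% of all genes. The median gene stood at -0.47 and -0.43 relative to its Sham mean, against -0.01 and 0.01 on the Sham arrays themselves. The log2 ratio of 1 W TAC to Sham was below 0 for 58 of 61 genes, against 47.5% of all genes, and its median was -0.45 (73.2% of the Sham level), against 0.01 over all genes. Both 1 W TAC arrays were below both Sham arrays for 54 genes, against a background of 20.4% of all genes, and both were above for 0 genes (22.1%). Genes with bright signals were lower as a set. Among the 382 genes at or above a log2 signal of 9.67 this background was 53.7%, and their median ratio was -0.15. This limit is the median signal of the 61 genes, so the 382 include the brighter members. They also include genes of the fatty acid oxidation and tricarboxylic acid cycle lists described below. In the limma fit over all 23332 rows, adjusted by the Benjamini-Hochberg method, 0 of the 61 genes passed an adjusted p of 0.05 in either direction (background 0.00429% lower, which is 1 row, and 0% higher). At an unadjusted p under 0.05, 27 genes were lower (background 4.87%) and 0 higher (7.16%), and the 27 became 9 without 1 W TAC replicate 1, 10 without 1 W TAC replicate 2, 13 without Sham replicate 1 and 12 without Sham replicate 2. The smallest adjusted p of a member was 0.246. In pieces of ventricle, fewer cells of a type and less RNA per cell cannot be told apart.

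**Figure D1:**
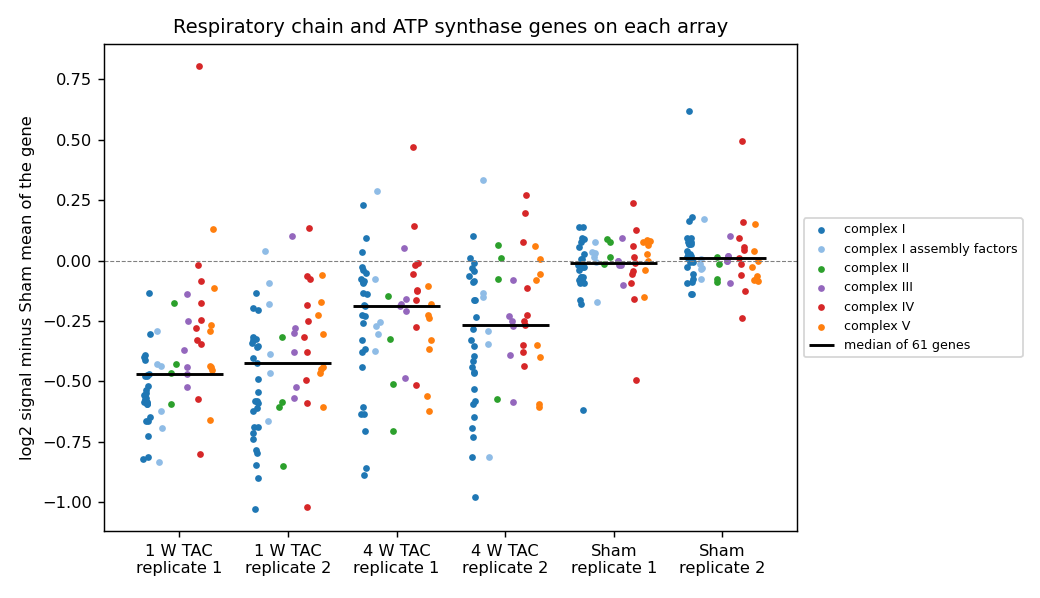
Each point is 1 of the 61 genes on 1 array, as its log2 signal minus the mean of its 2 Sham arrays (y axis), by array (x axis) and coloured by complex, and black bars are medians over the 61 genes. The medians lie at -0.47 and -0.43 on the 1 W TAC arrays, at -0.19 and -0.27 on the 4 W TAC arrays and at -0.01 and 0.01 on the Sham arrays.

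At 4 W TAC the genes were closer to Sham. On each 4 W TAC array 46 of 61 genes lay below both Sham arrays, against 27.5% and 26.3% of all genes, and the median gene stood at -0.19 and -0.27. The log2 ratio of 4 W TAC to Sham was below 0 for 56 genes, against 41.7% of all genes, with a median of -0.23 (85.0% of Sham), against 0.04 over all genes. Both 4 W TAC arrays were below both Sham arrays for 33 genes (background 12.9% of all genes and 24.1% of the bright ones) and above for 0 (17.3%). No member passed in the limma fit (background 0% in both directions), and the smallest adjusted p was 0.575. At an unadjusted p under 0.05, 7 genes were lower (background 1.39%) and 0 higher (2.42%). In 4 W TAC against 1 W TAC, 9 of the 61 genes had a ratio below 0, against 46.7% of all genes, and 52 above 0, with a median of 0.20 (0.11 without 4 W TAC replicate 1), against 0.01 over all genes. The arrays did not overlap for 23 genes that were higher at 4 W TAC (background 20.3%) and for 5 that were lower (16.6%), and 0 genes passed (background 0% in both directions; smallest adjusted p 0.616). At an unadjusted p under 0.05, 3 genes were higher at 4 W TAC (Cox8b, Ndufaf1 and Ndufs1; background 2.46%) and 1 was lower (Ndufa1; background 3.33%).

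**Figure D2:**
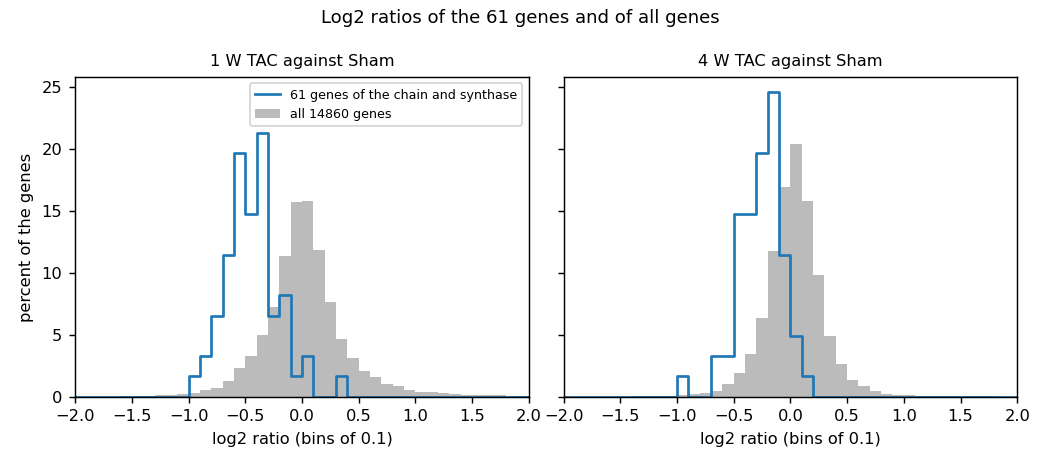
Share of genes (y axis, percent) by log2 ratio to Sham (x axis, bins of 0.1, drawn from -2 to 2), with grey bars for all 14860 genes and the blue line for the 61 genes of the chain and the synthase, at 1 W TAC (left) and 4 W TAC (right). The median of the 61 genes lies at -0.45 after 1 week and -0.23 after 4 weeks, against 0.01 and 0.04 for all genes.

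The median gene of each complex lay below Sham at both times. At 1 W TAC the median log2 ratio was -0.56 for complex II, -0.54 for complex I, -0.38 for complex III, -0.37 for complex V and -0.33 for complex IV, and -0.41 for the complex I assembly factors. On the 1 W TAC arrays the median gene of complex I stood at -0.57 and -0.58 relative to Sham, and that of complex IV at -0.26 and -0.28, so complex I was lower than complex IV on both arrays. The numbers of genes with both 1 W TAC arrays below both Sham arrays were 26 of 27 in complex I, 5 of 6 among its assembly factors, 4 of 4 in complex II, 5 of 6 in complex III, 7 of 10 in complex IV and 7 of 8 in complex V (background 20.4% of all genes and 53.7% of the bright ones). At 4 W TAC the medians were -0.30 for complex I, -0.29 for complex II, -0.26 for complex V, -0.22 for complex III, -0.17 for complex IV and -0.16 for the assembly factors, and the non-overlapping genes numbered 14, 2, 5, 5, 3 and 4 in that order (background 12.9% of all genes and 24.1% of the bright ones). The 3 of 10 genes of complex IV were thus near the share of bright genes and above that of all genes. Not all 10 reached the log2 signal of 9.67 that defines the bright genes. These medians rest on single mice: without 4 W TAC replicate 1 that of complex II was -0.03, without 4 W TAC replicate 2 those of complexes I and IV were -0.19 and -0.09, and without Sham replicate 2 that of complex IV was -0.08. Differences between complexes were not tested, since the genes of a complex are not replicates and few genes make up each.

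**Figure D3:**
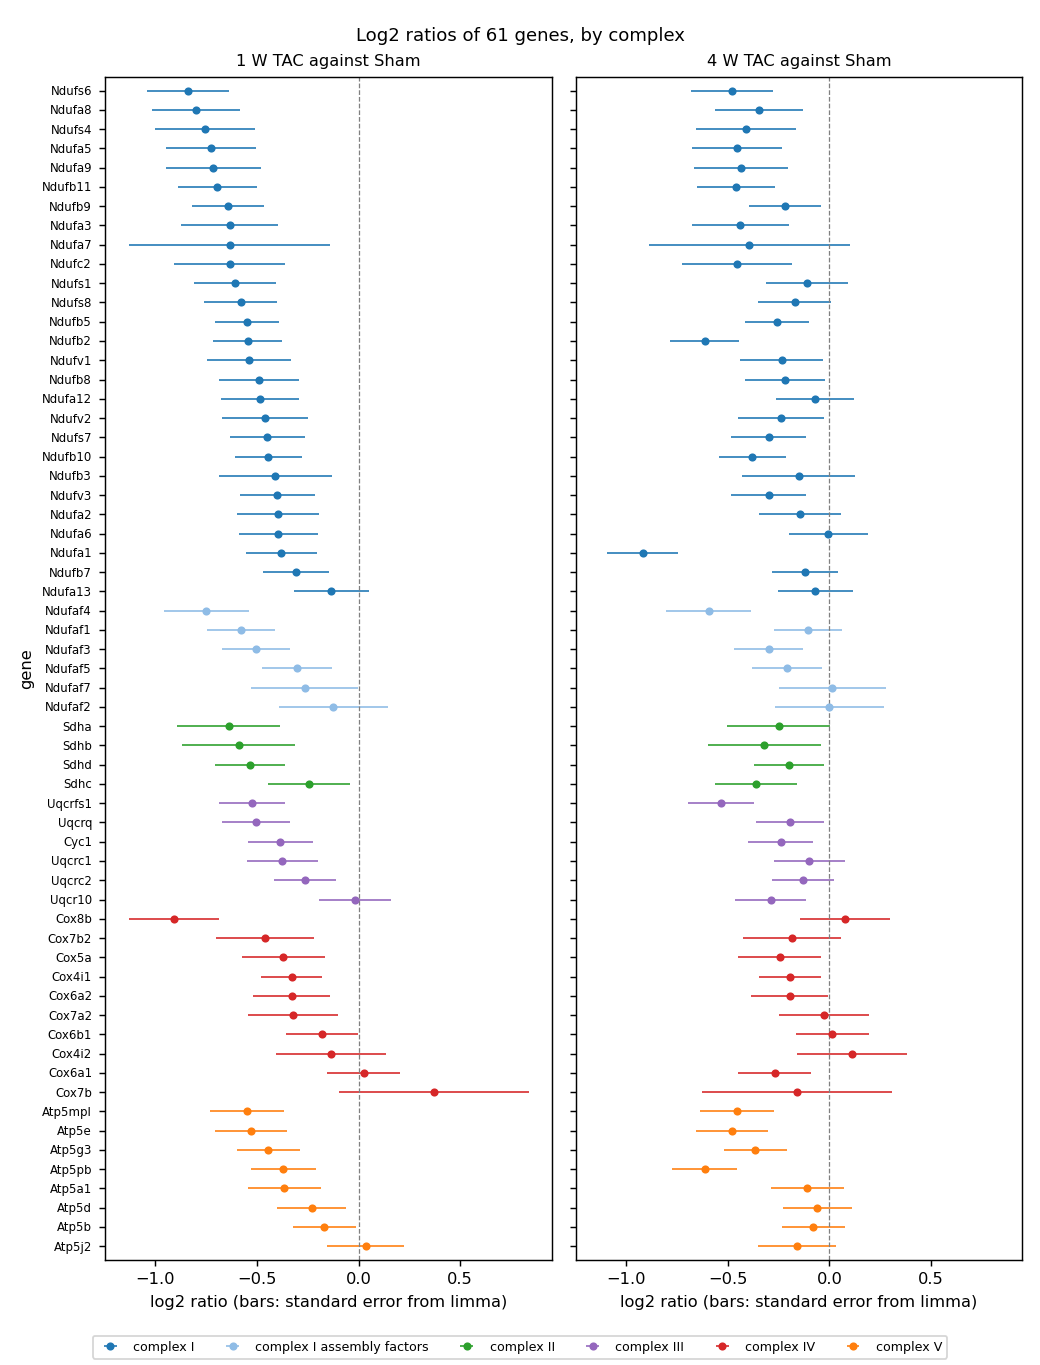
Log2 ratio to Sham (x axis, point) with its standard error from limma (bar) for each of the 61 genes (y axis), grouped and coloured by complex, at 1 W TAC (left) and 4 W TAC (right). All 27 subunits of complex I lie below 0 at both times, while Cox7b, Cox6a1 and Atp5j2 lie above 0 at 1 W TAC and Cox8b, Cox4i2, Cox6b1 and Ndufaf7 at 4 W TAC.

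Complex I was represented by 5 core subunits, which carry the flavin and the iron-sulphur clusters, and by 22 accessory subunits. The core subunits had close ratios at 1 W TAC, between -0.61 for Ndufs1 and -0.45 for Ndufs7, with Ndufs8 at -0.58, Ndufv1 at -0.54 and Ndufv2 at -0.46. Ndufs1, the large iron-sulphur subunit of the electron input module, had log2 signals of 10.39 and 10.13 at 1 W TAC, 10.64 and 10.88 at 4 W TAC, against 11.01 and 10.73 in Sham. Its 1 W TAC arrays were below both other groups, while its 4 W TAC and Sham arrays overlapped (log2 ratio -0.11). Ndufv1, which binds NADH and the flavin, had 9.96 and 9.82 at 1 W TAC, 9.99 and 10.40 at 4 W TAC, against 10.52 and 10.34 in Sham, again with only the 1 W TAC arrays clear of Sham. Ndufs7, the subunit closest to ubiquinone, was the 1 core subunit whose 4 W TAC arrays (12.30 and 11.98) also lay below its Sham arrays (12.37 and 12.51), with 12.03 and 11.95 at 1 W TAC. The median of the core subunits was -0.54 after 1 week and -0.23 after 4 weeks, against -0.55 and -0.36 for the accessory ones.

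The lowest members of complex I at 1 W TAC were accessory subunits. Ndufs6, a zinc-binding subunit added late in assembly, had log2 signals of 9.47 and 9.09 at 1 W TAC, 9.74 and 9.54 at 4 W TAC, against 10.05 and 10.19 in Sham. Neither TAC group overlapped with Sham, and the log2 ratio was -0.84 (standard error 0.20, adjusted p = 0.246 by limma) after 1 week and -0.48 after 4 weeks. Ndufa8, a subunit that faces the intermembrane space, had 9.89 and 9.92 at 1 W TAC, 10.10 and 10.62 at 4 W TAC, against 10.71 and 10.70 in Sham, a ratio of -0.80 (standard error 0.22, adjusted p = 0.276) at 1 W TAC. The 2 mice of 4 W TAC differed for this gene, 1 of them being close to Sham. Ndufs4, whose loss causes Leigh-like disease in mice, had 7.59 and 7.72 at 1 W TAC, 8.32 and 7.68 at 4 W TAC, against 8.40 and 8.42 in Sham, a ratio of -0.76 (standard error 0.24, adjusted p = 0.342) at 1 W TAC. Its 4 W TAC mice also differed, and here the other replicate was close to Sham. At the other end of the complex, Ndufa13 (also known as GRIM-19) had ratios of -0.14 after 1 week and -0.07 after 4 weeks, with arrays apart from Sham at 1 W TAC (8.31 and 8.31 against 8.37 and 8.52) but not at 4 W TAC (8.54 and 8.21), and Ndufa6 had -0.40 and -0.01. The 1 subunit of complex I whose 1 W TAC arrays overlapped with Sham was the dim Ndufa7 (-0.64, standard error 0.49).

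Ndufa1, a small membrane subunit encoded on the X chromosome, followed another order. Its log2 signals were 7.65 and 7.69 at 1 W TAC, 7.19 and 7.07 at 4 W TAC, against 8.19 and 7.91 in Sham, so no 2 groups overlapped and the 4 W TAC arrays were lowest. The ratio was -0.38 after 1 week and -0.92 (standard error 0.18, adjusted p = 0.575) after 4 weeks, 52.9% of the Sham level, the lowest of the 61 genes at that time. In 4 W TAC against 1 W TAC it was -0.54 (standard error 0.18, adjusted p = 0.701). Ndufb2, another accessory subunit of the membrane arm, had 6.52 and 6.76 at 1 W TAC, 6.55 and 6.59 at 4 W TAC, against 7.24 and 7.13 in Sham. The 2 TAC groups were both below Sham and overlapped with each other, with ratios of -0.55 and -0.61.

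Among the 6 assembly factors with an Nduf name, which help build complex I and leave it again, Ndufaf4 was lowest at both times. It had log2 signals of 8.27 and 8.44 at 1 W TAC, 8.73 and 8.29 at 4 W TAC, against 9.18 and 9.03 in Sham, with ratios of -0.75 (standard error 0.21, adjusted p = 0.285) and -0.60. Ndufaf1 had -0.58 after 1 week and -0.11 after 4 weeks, with signals of 8.16 and 8.39 at 1 W TAC, 8.78 and 8.72 at 4 W TAC, against 8.85 and 8.86 in Sham. Its 4 W TAC arrays were below Sham by little and above those of 1 W TAC (4 W TAC to 1 W TAC 0.47, standard error 0.17, adjusted p = 0.721). Ndufaf3 had -0.51 and -0.30 and Ndufaf5 -0.31 and -0.21. Ndufaf7 (-0.27 and 0.02) was apart from Sham only at 1 W TAC, and Ndufaf2 (-0.13 and 0.00) at neither time.

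Complex II, succinate dehydrogenase, is also an enzyme of the tricarboxylic acid cycle, and all 4 of its subunits are nuclear. Sdha, the flavoprotein that oxidises succinate, had log2 signals of 11.17 and 10.75 at 1 W TAC, 11.09 and 11.61 at 4 W TAC, against 11.69 and 11.51 in Sham. Sdhb, the iron-sulphur subunit, had 9.56 and 9.57 at 1 W TAC, 9.45 and 10.22 at 4 W TAC, against 10.23 and 10.08 in Sham. For both genes the 1 W TAC arrays were below Sham, while of the 4 W TAC arrays replicate 1 was as low as at 1 W TAC and replicate 2 lay between the 2 Sham arrays. Their ratios were -0.64 (standard error 0.26, adjusted p = 0.432) and -0.59 (standard error 0.28, adjusted p = 0.516) at 1 W TAC and -0.25 and -0.32 at 4 W TAC. Sdhd, a membrane anchor, had -0.54 after 1 week and -0.20 after 4 weeks. Sdhc, the other anchor, had 9.75 and 9.61 at 1 W TAC, 9.78 and 9.35 at 4 W TAC, against 9.94 and 9.91 in Sham, with ratios of -0.25 and -0.36. It was the 1 subunit of complex II that was not higher at 4 W TAC than at 1 W TAC.

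In complex III, Uqcrfs1, the Rieske iron-sulphur protein, was lowest at both times. It had log2 signals of 8.47 and 8.47 at 1 W TAC, 8.51 and 8.41 at 4 W TAC, against 9.09 and 8.90 in Sham. The 2 TAC groups lay together below Sham, with ratios of -0.53 (standard error 0.16, adjusted p = 0.323) and -0.54 (standard error 0.16, adjusted p = 0.779). Uqcrq, a small subunit next to cytochrome b, had -0.51 and -0.20, and Cyc1, the cytochrome c1 that hands electrons to cytochrome c, -0.38 and -0.24. The large core proteins were closer to Sham, Uqcrc1 with -0.38 and -0.10 and Uqcrc2 with -0.27 and -0.13. Uqcr10, a small subunit of the membrane part, had 9.20 and 9.44 at 1 W TAC, 9.15 and 8.95 at 4 W TAC, against 9.32 and 9.36 in Sham. It overlapped with Sham at 1 W TAC (ratio -0.02) and lay below it at 4 W TAC (-0.29).

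**Figure D4:**
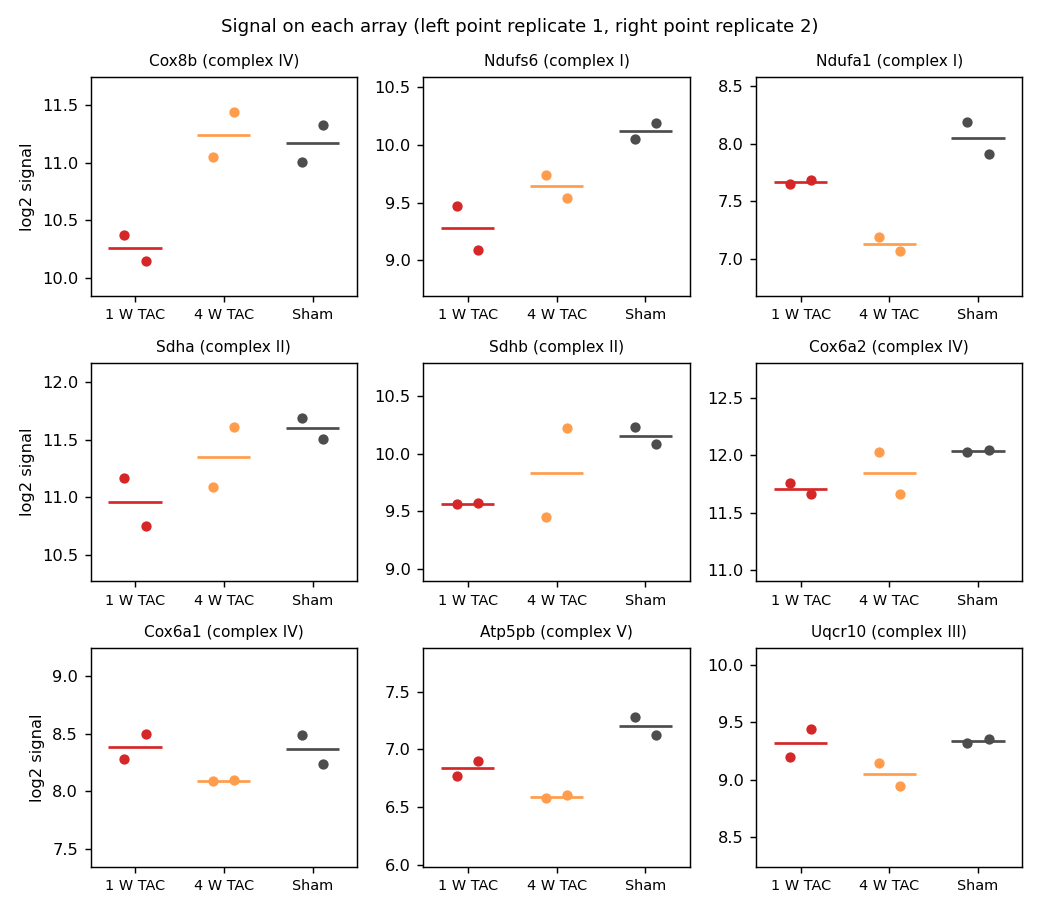
Log2 signal (y axis, the same span of 1.9 in each panel) of 9 genes on each array, with replicate 1 as the left and replicate 2 as the right point and the group mean as a line, for 1 W TAC, 4 W TAC and Sham (x axis). Cox8b is low at 1 W TAC alone (10.37 and 10.15), Ndufa1 is lowest at 4 W TAC (7.19 and 7.07), and the 4 W TAC arrays of Sdhb lie apart (9.45 and 10.22).

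Complex IV held the member with the lowest ratio at 1 W TAC and several that were near Sham. Cox8b, the form of subunit VIII found in heart and skeletal muscle, had log2 signals of 10.37 and 10.15 at 1 W TAC, 11.05 and 11.44 at 4 W TAC, against 11.01 and 11.33 in Sham. The 1 W TAC arrays were below all others, while 4 W TAC and Sham overlapped. The ratio was -0.91 (standard error 0.22, adjusted p = 0.25), 53.2% of Sham, after 1 week and 0.07 after 4 weeks, and 4 W TAC against 1 W TAC gave 0.99 (standard error 0.22, adjusted p = 0.616), the largest of the 61 genes. Brown fat also uses Cox8b, and the fat markers are given below. Cox5a, which binds next to the catalytic core, had -0.37 and -0.24 and Cox4i1, the widespread form of subunit IV, -0.33 and -0.20. Cox6b1, which faces cytochrome c, had -0.18 and 0.02. Cox7b (0.37 and -0.16) and Cox7b2 (-0.46 and -0.19) had low signals, and the standard error of 0.47 for Cox7b was larger than its ratio.

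The tissue forms could be compared within 1 pair of subunit VIa and 1 of subunit IV. Cox6a2, the heart and skeletal muscle form, had log2 signals of 11.76 and 11.66 at 1 W TAC, 12.03 and 11.66 at 4 W TAC, against 12.03 and 12.05 in Sham, with ratios of -0.33 (standard error 0.19, adjusted p = 0.604) and -0.20. Cox6a1, the widespread form, had 8.28 and 8.5 at 1 W TAC, 8.09 and 8.10 at 4 W TAC, against 8.49 and 8.24 in Sham, with ratios of 0.03 and -0.27. Thus Cox6a2 was below Sham at 1 W TAC and Cox6a1 was not, while at 4 W TAC both Cox6a1 arrays were below Sham and Cox6a2 overlapped with it. The difference Cox6a2 minus Cox6a1, of which only the change is read because 2 probe sets have no common scale, was 3.48 and 3.16 at 1 W TAC, 3.94 and 3.56 at 4 W TAC, against 3.54 and 3.81 in Sham. It was 0.36 lower on average at 1 W TAC than in Sham (exact permutation test, two-sided, p = 0.333, the smallest that 2 against 2 arrays allow) and 0.07 higher at 4 W TAC (exact p = 0.667). Cox4i2, the form of subunit IV known from lung and from low oxygen, had ratios of -0.14 after 1 week and 0.11 after 4 weeks and overlapped with Sham at both times. The difference Cox4i2 minus Cox4i1 was -3.68 and -3.94 at 1 W TAC, -3.37 and -4.03 at 4 W TAC, against -3.96 and -4.05 in Sham, a change of 0.20 at 1 W TAC (exact permutation p = 0.333) and 0.31 at 4 W TAC (exact permutation p = 0.667). Cox7a2, the widespread form of subunit VIIa, had -0.33 and -0.03. The muscle form of subunit VIIa and the widespread form of subunit VIII were not analysed here.

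In complex V all members but Atp5j2 had ratios below 0 at 1 W TAC. Atp5b, the catalytic beta subunit, had log2 signals of 12.96 and 12.85 at 1 W TAC, 12.97 and 13.02 at 4 W TAC, against 13.10 and 13.05 in Sham, so that both TAC groups lay below Sham by little (ratios -0.17 and -0.08). Atp5a1, the alpha subunit, had -0.37 and -0.11, and Atp5d, the delta subunit of the central stalk, -0.23 and -0.06. Atp5e, the epsilon subunit of the same stalk, was lower, with -0.53 (standard error 0.18, adjusted p = 0.355) and -0.48. Atp5g3, a form of the c subunit that makes up the rotor ring, had -0.45 and -0.37, and Atp5mpl, a small subunit of the membrane part, -0.55 and -0.46. Atp5pb, subunit b of the outer stalk, had 6.77 and 6.90 at 1 W TAC, 6.58 and 6.60 at 4 W TAC, against 7.28 and 7.13 in Sham. No 2 groups overlapped and, as for Ndufa1, the 4 W TAC arrays were lowest, with ratios of -0.37 and -0.61 (standard error 0.16, adjusted p = 0.735). Atp5j2, subunit f, overlapped with Sham at both times (0.04 and -0.16).

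The 2 mice of a group agreed better at 1 W TAC than at 4 W TAC. Over the 61 genes, the deviations of the 2 arrays from the Sham mean correlated with a Pearson r of 0.588 (Spearman's rho 0.591) after 1 week and of 0.006 (rho -0.048) after 4 weeks. These values describe genes that share arrays and the same Sham mean, and carry no test. The difference of replicate 2 minus replicate 1 had an SD over the 61 genes of 0.237 at 1 W TAC, 0.383 at 4 W TAC and 0.261 in Sham. Replicate 2 of 4 W TAC was higher by at least 0.5 for 7 genes, the dim Ndufa7 (0.99) and Cox7b (0.71) and also Sdhb (0.77), Ndufaf7 (0.64), Ndufa9 (0.54), Sdha (0.52) and Ndufa8 (0.52). It was lower by at least 0.5 for 6, Ndufb3 (-0.76), Ndufc2 (-0.72), Cox4i2 (-0.72), Ndufs4 (-0.64), Ndufaf2 (-0.58) and Ndufa3 (-0.51). Low and high genes at 4 W TAC therefore differed between the mice, although the medians of the 61 genes were alike (-0.19 and -0.27). Ndufa1, Ndufb2, Uqcrfs1 and Atp5pb were among those for which both 4 W TAC mice lay below the Sham mean by at least 0.4.

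**Figure D5:**
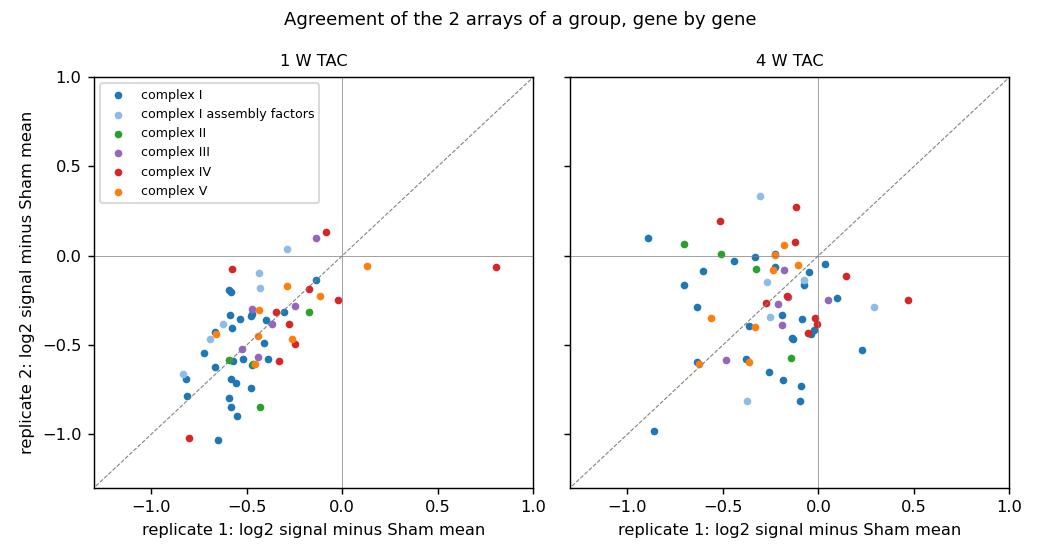
Deviation from the Sham mean on replicate 2 (y axis, log2) against replicate 1 (x axis, log2) for each of the 61 genes, coloured by complex, at 1 W TAC (left) and 4 W TAC (right), with the dashed line for equal values. The points run along the line at 1 W TAC (r = 0.588) and show no common order at 4 W TAC (r = 0.006).

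Genes around the chain were read from hand-written lists. At 1 W TAC 47.5% of all genes had a ratio below 0, 20.4% lay apart from Sham below and 22.1% above. Among the bright genes 53.7% lay apart below. Of 32 measured assembly factors without an Nduf name (40 listed), 29 had a ratio below 0 at 1 W TAC, 23 lay apart from Sham below and 1 above, and the median was -0.34, against -0.14 at 4 W TAC. Uqcc1, which helps build complex III, was lowest (-0.86, standard error 0.17, adjusted p = 0.194 by limma), followed by Lrpprc (-0.72), which stabilises mitochondrial mRNAs. Uqcc2 (0.41, standard error 0.36) and Nubpl (0.21, standard error 0.61) were highest. Both had dim signals, with Sham means of 4.59 and 4.92, below the median of all rows (5.37). Of 5 measured electron carriers and inputs (7 listed), all were below 0 at 1 W TAC and 4 lay apart from Sham. Etfb and Etfdh, which carry electrons from fatty acid oxidation to ubiquinone, had -0.89 (standard error 0.16, adjusted p = 0.188) and -0.79 at 1 W TAC, and the median of the list was -0.78 after 1 week and -0.28 after 4 weeks. Dhodh (-0.34) and Gpd2 (-0.41), which feed ubiquinone from pyrimidine synthesis and from glycerol phosphate, were the highest of this list. Of 16 measured regulators (18 listed), 13 were below 0 at 1 W TAC, 10 lay apart from Sham below and 3 above. The 3 of 16 above were near the share of all genes. The median of the regulators was -0.31 after 1 week and -0.08 after 4 weeks. Tfam, which maintains mitochondrial DNA, had -0.74 (standard error 0.24, adjusted p = 0.340) and Ppara, a receptor for fatty acids, -0.71, while Hif1a, the oxygen-sensitive factor, had 0.45 and Gabpb1, a partner of an ETS factor, 0.30. Of the factors behind the letters searched in promoters, Nrf1 and Yy1 had -0.12 and -0.05 at 1 W TAC and overlapped with Sham. The ERR factors Esrrg, Esrrb and Esrra (-0.66, -0.51 and -0.31) and the ETS factor Gabpa (-0.34) lay apart below it.

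The ratios were also read by the promoter letters. The 12 genes with NRF1 letters had a median ratio of -0.49 at 1 W TAC, against -0.46 for the 37 without. The 5 genes with YY1 letters had -0.71, against -0.46 for the 44 without, and ranged from Ndufs6 (-0.84), Ndufs4 (-0.76) and Ndufa9 (-0.71) through Ndufs7 (-0.45) to Atp5j2 (0.04). Of these 5 genes 4 belong to complex I, whose median was -0.54, so letters and complex cannot be told apart. Their YY1 matches began between bases 24 and 36 after the gene start. Cox6a1, whose window holds NRF1 letters as those of Ndufs6, Ndufa8 and Sdha do, had 0.03. These medians were not tested. Cox8b, Ndufa1, Uqcrfs1 and Atp5pb had windows with none of the letters searched, as did most of the 49 genes.

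Set beside other mitochondrial lists, the 61 genes (-0.45 after 1 week and -0.23 after 4 weeks) were less far below Sham at 1 W TAC than fatty acid oxidation (15 of 20 genes measured, -0.81 and -0.33, with 15 of 15 apart below Sham at 1 W TAC). The tricarboxylic acid cycle (16 of 18 measured) had -0.53 and -0.17, with 15 of 16 apart at 1 W TAC. The mitochondrial ribosome (68 genes) had -0.37 and -0.19, with 49 of 68 apart below. The vacuolar ATPase, a proton pump of other membranes (20 genes), had 0.15 and 0.02. Over all genes 20.4% lay apart below Sham at 1 W TAC, and among the bright genes 53.7%. No difference between these lists was tested.

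Markers of other cells moved over the same arrays. The mean log2 signal of 10 macrophage markers (11 listed) was 7.56 and 7.98 at 1 W TAC, 6.75 and 7.01 at 4 W TAC, against 6.60 and 6.43 in Sham, with 9 of 10 genes apart above Sham after 1 week and 6 after 4 weeks. For 10 fibroblast markers it was 9.95 and 10.19 at 1 W TAC, 9.16 and 9.50 at 4 W TAC, against 8.43 and 8.32 in Sham, with 10 and 9 genes apart above Sham. Of all genes, 22.1% lay apart above Sham after 1 week and 17.3% after 4 weeks. The cardiomyocyte markers had a median ratio of -0.15 after 1 week and -0.08 after 4 weeks, smaller than that of the 61 genes, and endothelial markers (8 genes) had -0.05 and 0.16. After 1 week 6 of the 9 cardiomyocyte markers lay apart below Sham and 1 above, with ratios from -0.55 (Ckm) to 0.31 (Mybpc3). After 4 weeks 3 lay apart below and 3 above. Apart below Sham were 20.4% of all genes and 53.7% of the bright ones after 1 week, and 12.9% and 24.1% after 4 weeks. The cardiomyocyte markers averaged 12.29 to 12.54, near the highest signal measured (13.69), while the 61 genes had a median of 9.67. These 2 sets were thus not compared at like signals. The fat markers (8 of 10 measured) had a median ratio of -0.32 and 0.08. Among them Ucp1, which defines brown fat, a tissue rich in the chain, had 4.40 and 4.18 at 1 W TAC. It had 6.35 and 3.96 at 4 W TAC, against 8.21 and 4.19 in Sham. The fat markers did not all follow Ucp1. In Sham, replicate 1 was higher than replicate 2 for 5 of the 8 and lower for 3. At 4 W TAC it was higher for 5 and lower for 2. In Sham, Adipoq (5.27 and 3.53) went with Ucp1, while Lep (2.74 and 3.26) and Retn (4.43 and 5.26) went the other way. Cidea (7.5 and 7.25) differed little. Without the 2 arrays with high Ucp1 signals (1 of 4 W TAC and 1 of Sham) the median of the 61 genes was -0.44 after 1 week and -0.29 after 4 weeks. Cox8b had 11.01 in Sham and 11.05 at 4 W TAC on these 2 arrays, against 11.33 and 11.44 on the other array of each group. Atrial (3 of 4 measured, -0.41 and 0.88), skeletal muscle (5 of 8, 0.18 and 0.06) and erythroid markers (2 of 5, -0.77 and -0.48) also varied. Apart from the values without those 2 arrays, the part of these markers in the results was not tested.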

How the data were processed

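The authors made the deposited values, which are log2 signals per transcript cluster, by RMA (background correction, quantile normalization and median polish) in Affymetrix Expression Console. The sources used here give no versions and no cluster annotation for these values, and name a genome build (mm8) only for exon positions. RNA was extracted with Trizol per the labels and with a column kit per the study's methods. Rows were named by the array annotation: of 23332 rows, 14996 had 1 symbol, 1019 several and 7317 none. For 135 genes with more than 1 row the brightest row on average was taken, and each of the 61 members had a single row. The 7 rows joining a member-type symbol with another symbol (Ndufa10, Ndufa11, Cox6c, Cox7a2l, Atp5j, Atp5o and Atp5c1) name no gene. Some other subunits were not analysed here. All 61 members matched the RefSeq gene table by Entrez ID with the same symbol.

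The values were used without further normalization or filter. A model with a mean for each of the 3 groups was fitted to all 6 arrays in limma 3.58.1 in R 4.3.3 (lmFit, eBayes; 3 residual and 2.68 prior degrees of freedom, prior SD 0.219), with the Benjamini-Hochberg adjustment taken across the 23332 rows and a threshold of 0.05. Log2 ratios are differences between group means. Groups lie apart where both arrays of one are below both of the other. The fit was run on simulated data, with planted changes larger than those of any member, to check the ratios for bias. That run does not show how often changes as small as those of the members would be called. Plots were made in Python 3.11.15 with matplotlib 3.10.9.

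The members and the gene lists, written by hand, were chosen with earlier results of these data known. Named were, per complex, the 3 members lowest and the 1 highest at 1 W TAC, the 2 lowest and the 1 highest at 4 W TAC, the core subunits of complex I, complex II, the isoform sets, members of opposite direction at the 2 times, and the 2 lowest and 2 highest of the carrier, assembly and regulator lists; other names were chosen after their values were seen. The labels do not say whether replicate numbers pair mice. Over all rows, the replicate differences of 2 groups correlated at 0.084, -0.148 and -0.171. These values come from 1 difference per group and cannot exclude a batch shared by equal numbers. Alternatives were the rows tested, low-signal filters, the row per gene, centring, a repeated quantile normalization, eBayes settings, 2 groups alone, a replicate block, the methods' t-test, leaving out assembly factors, and leaving out each array.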

Additional observations from a re-analysis of the deposited data

How the results depend on the processing

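Under every alternative tried with limma 0 of the 61 genes passed an adjusted p of 0.05. Fitting only rows with 1 symbol gave the smallest adjusted p of a member as 0.076 at 1 W TAC, where 63 of the 14996 rows passed lower and 205 higher, and leaving out rows under the median signal gave 0.072. The study picked splicing factors by a t-test with a fold change over 1.5 in at least 1 of its 1 W TAC datasets and the same direction in all. On these arrays alone, that t-test and fold change without adjustment counted 9 members lower at 1 W TAC and 3 lower at 4 W TAC. It counted 1 higher in 4 W against 1 W TAC. The share of all genes that pass this rule was not counted, so these numbers are not read as a result about the members. In each case limma called 0, and after the Benjamini-Hochberg adjustment the t-test counted 0.

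The numbers of members with an unadjusted p under 0.05 depended on the fit. Of all genes in the main fit, 4.87% were lower at 1 W TAC and 1.39% at 4 W TAC. In 4 W against 1 W TAC 2.46% were higher and 3.33% lower. These shares were not counted for the alternatives, so the numbers below are not read as a result about the members. At 1 W TAC there were 27 lower: 36 with trend and robust eBayes, 33 with only rows of 1 symbol, 32 with centred arrays, 31 without rows under the median signal, 24 with a repeated quantile normalization, between 9 and 27 when 1 array was left out (9 without 1 W TAC replicate 1, 10 without 1 W TAC replicate 2, 13 without Sham replicate 1 and 12 without Sham replicate 2), and 15 without both arrays with high Ucp1 signals, an alternative chosen after seeing the data. At 4 W TAC there were 7 lower: 11 with only rows of 1 symbol, 11 with trend and robust eBayes, 4 with only the 2 groups and between 2 and 9 when 1 array was left out (2 without Sham replicate 1, 4 without Sham replicate 2 or either 1 W TAC array). In 4 W against 1 W TAC there were 3 higher: 5 with only rows of 1 symbol, 6 with trend and robust eBayes and between 1 and 4 when 1 array was left out (1 without 1 W TAC replicate 1), and 1 lower, with 0 to 1 when 1 array was left out (0 without any 1 W or 4 W TAC array). Where a group was left with 1 array, that array was assumed to vary like the others. With the replicate number as a block, 18 genes were lower at 1 W TAC, 4 lower at 4 W TAC and 1 higher in 4 W against 1 W TAC. Whether the numbers pair mice is not given by the labels, and no adjusted call changed.

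The median log2 ratio of the 61 genes at 1 W TAC was -0.50 with arrays centred on their median (which moved the median of all genes to -0.04), -0.41 with a repeated quantile normalization and between -0.47 and -0.43 when 1 array was left out. At 4 W TAC it was -0.29 without both arrays with high Ucp1 signals and between -0.27 and -0.19 when 1 array was left out. In 4 W against 1 W TAC it was 0.16 with a repeated quantile normalization, 0.11 without both arrays with high Ucp1 signals and between 0.11 and 0.21 when 1 array was left out (0.11 without 4 W TAC replicate 1). At 4 W TAC the median of complex II was -0.03 without 4 W TAC replicate 1 and that of complex IV -0.08 without Sham replicate 2. The change of the Cox6a2 minus Cox6a1 difference when 1 array was left out ran from -0.52 to -0.20 after 1 week and from -0.12 to 0.27 after 4 weeks.

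Single genes were followed with 1 array left out only for the 42 members picked by the naming rule above. Some of their ratios changed sign, and the other members were not followed in this way. At 1 W TAC these were Atp5j2 (-0.12 to 0.18), Cox6a1 (-0.10 to 0.15), Cox7b (-0.13 to 0.86), Ndufaf2 (-0.30 to 0.045) and Uqcr10 (-0.14 to 0.10), and centring gave -0.01 for Atp5j2 and -0.02 for Cox6a1. At 4 W TAC they were Atp5d (-0.18 to 0.06), Cox4i2 (-0.25 to 0.47), Cox6b1 (-0.12 to 0.14), Cox7a2 (-0.13 to 0.075), Cox7b (-0.66 to 0.34), Cox7b2 (-0.43 to 0.055), Cox8b (-0.12 to 0.27), Ndufa13 (-0.24 to 0.10), Ndufa6 (-0.045 to 0.035), Ndufaf7 (-0.30 to 0.34), Ndufs1 (-0.25 to 0.03), Sdha (-0.51 to 0.01), Sdhb (-0.71 to 0.065) and Uqcrc1 (-0.25 to 0.05). The causes were not tested.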
